A study of Mus musculus with 19 samples.

Results

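The 8 genes described here, *Zscan4c*, *Zscan4d*, *Zscan4f*, *Zfp352*, *Tcstv1*, *Tcstv3*, *Tdpoz3* and *Tdpoz4*, are known as genes of the 2-cell stage. They were chosen by name, and for each the 2 kb intervals overlapping the gene and 10 kb either side were taken. Of the 8 genes, 6 could be placed on the NCBIM37 mouse genome with the annotation used (GENCODE M1). These 6 gene regions covered 78 of the 1327469 intervals of the table and were 6 of 23641 gene regions. *Tcstv1* and *Tcstv3* had no entry there and were not analysed here.

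In the mouse embryo these genes are transcribed in a burst when the zygotic genome is first activated, and a small, changing share of embryonic stem cells (ESCs) enters a state in which they are transcribed again. The long terminal repeats of the endogenous retrovirus MERVL are active at the same time and serve as promoters of some genes of that state. H3K9me3, H3K9me2 and H3K27me3 are modifications of histone H3 linked to silencing. H3K9me3 is best known from endogenous retroviruses, H3K9me2 from broad inactive domains and H3K27me3 from Polycomb target genes.

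Chromatin immunoprecipitation followed by sequencing (ChIP-seq) of the 3 marks was compared between control and *Dnmt1* cKO ESCs, to ask whether these marks change once the maintenance DNA methyltransferase is lost. The methods describe ESCs with loxP sites on both *Dnmt1* alleles in which Cre, induced with tamoxifen, deletes the gene in culture. Control cells carry the genotype label wildtype, cKO cells carry Dnmt1 KO (DNMT1KO in the sample names), and whether controls received tamoxifen is not given in the sources used here. The medium held serum and LIF, with or without feeder cells per the methods. The labels give the background E14, whereas the methods name C57BL/6. For every mark, day 4 was covered by a single library per genotype and day 8 by 2, and the only input was made from control cells. The design text calls the day 8 libraries biological replicates but the methods speak of 1 measurement, so the p-values below measure the spread between these libraries, whatever its source.

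ChIP libraries summed to 14627174 to 26181489 reads over the intervals, with 1 exception. Replicate 1 of H3K9me3 in day 8 cKO cells, called the shallow library here, reached 5669098 (median 3 reads in a 2 kb interval, against 11 to 17 elsewhere). The input summed to 19010249 reads. In the interval of *Dnmt1* with the clearest loss of reads (chromosome 9, 20744001 to 20746000), chosen after its values were seen, the 6 day 8 control libraries held 49 reads and the 6 cKO libraries 1. At day 4 the values were 23 and 9 in 3 libraries each, so that this interval was still read in the cKO cultures.

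The *Zscan4* genes encode proteins with a SCAN domain and zinc fingers that act in telomere maintenance and genome stability. *Zscan4c* (ENSMUSG00000054272) lies on the plus strand of chromosome 7 from 11591071 to 11595896, *Zscan4d* (ENSMUSG00000090714) on the minus strand from 11746992 to 11751497 and *Zscan4f* (ENSMUSG00000070828) on the plus strand from 11983264 to 11988090. The 3 genes are near-identical copies. The region of *Zscan4c* aligned to that of *Zscan4f* over its whole length, in the longest stretch over 26045 bases at 98.91% identity. *Zscan4c* and *Zscan4d* shared 8623 bases at 95.593% identity, and *Zscan4d* and *Zscan4f* 8625 bases at 95.803%. The sequences just upstream of the 3 annotated starts are shown because their few differences are what a read can be placed by. They are from NCBIM37, 5′ to 3′ on the strand of the gene. In *Zscan4d* and *Zscan4f*, capitals mark the bases that differ from *Zscan4c*. In *Zscan4c*, they mark the bases at which *Zscan4d*, *Zscan4f* or both differ or lack the base.
Zscan4c (chr7:11590771-11591070, plus strand): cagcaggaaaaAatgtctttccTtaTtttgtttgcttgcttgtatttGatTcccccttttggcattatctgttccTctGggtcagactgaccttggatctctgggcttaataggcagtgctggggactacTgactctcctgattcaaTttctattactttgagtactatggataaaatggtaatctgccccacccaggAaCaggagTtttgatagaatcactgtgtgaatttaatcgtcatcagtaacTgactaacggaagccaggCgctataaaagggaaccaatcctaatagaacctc
Zscan4d (chr7:11751532-11751830, minus strand): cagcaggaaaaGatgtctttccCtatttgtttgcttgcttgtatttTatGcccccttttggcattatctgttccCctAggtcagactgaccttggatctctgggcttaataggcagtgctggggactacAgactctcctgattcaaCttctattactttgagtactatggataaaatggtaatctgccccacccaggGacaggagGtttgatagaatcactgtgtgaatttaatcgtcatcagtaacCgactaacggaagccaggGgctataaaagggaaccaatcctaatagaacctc
Zscan4f (chr7:11982964-11983263, plus strand): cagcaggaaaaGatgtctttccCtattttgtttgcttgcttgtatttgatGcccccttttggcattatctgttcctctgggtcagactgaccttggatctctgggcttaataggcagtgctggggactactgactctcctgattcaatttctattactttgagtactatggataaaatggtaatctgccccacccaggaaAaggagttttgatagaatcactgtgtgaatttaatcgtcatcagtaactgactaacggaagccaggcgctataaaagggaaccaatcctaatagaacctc
Against *Zscan4c*, the *Zscan4f* sequence held 4 substitutions and the *Zscan4d* sequence 12 substitutions and 1 missing base. Of the 265 stretches of 36 bases (36-mers) in the *Zscan4c* sequence, 39 (14.7%) occurred once in the genome, against 101 of 264 (38.3%) for *Zscan4d* and 13 of 265 (4.91%) for *Zscan4f*. The motif TATAAA (either strand) was found on the strand of the gene in all 3 sequences, 31 bases before the annotated start of *Zscan4c* and *Zscan4f* and 65 before that of *Zscan4d*. It was not found in the 300 bases before the starts of *Zfp352*, *Tdpoz3* or *Tdpoz4*. Of the corresponding windows of 22367 protein-coding genes, 14.6% held it on either strand.

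*Tdpoz3* and *Tdpoz4* belong to a family of proteins with a TRAF and a POZ domain. *Tdpoz3* (ENSMUSG00000058005) lies on chromosome 3 from 93629942 to 93631039 and *Tdpoz4* (ENSMUSG00000060256) from 93600320 to 93601432, both on the plus strand and each annotated as 1 coding exon, so that their annotated start is that of the coding sequence. *Zfp352* (ENSMUSG00000070902), which encodes a zinc finger protein, lies on the plus strand of chromosome 4 from 89885511 to 89892393 and has 4 annotated exons. The longest alignment between the *Tdpoz3* and *Tdpoz4* regions covered 2376 bases at 76.389% identity, so these copies have diverged far more than the *Zscan4* genes. *Zfp352* and *Tdpoz4* shared 1915 bases at 96.136% identity upstream and downstream of the gene, respectively (chr4:89880811-89882725 and chr3:93603216-93605130). This stretch is in part sequence repeated elsewhere in the genome. Stretches of 36 bases occurred in a median of 1223.5 copies in the overlapping *Zfp352* interval starting at 89880001 and 2 in that at 89882001. The medians for *Tdpoz4* were 31 copies in the interval starting at 93604001 and 2 in that at 93602001. None of the 78 intervals overlapped another annotated gene.

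Alignments of low mapping quality, which include those of reads that match several copies, had been discarded. Over all 19 libraries none of the 78 intervals was without reads, against 5.06% of all intervals of the table. In the input alone, 10 intervals (12.8%) held no read, against 6.44% of all intervals, and all 10 were at *Zscan4* genes (5 at *Zscan4c*, 1 at *Zscan4d*, 4 at *Zscan4f*). Both shares of all intervals count stretches of unknown bases, to which no read can align. Over 21 chromosomes 1278680 intervals were free of unknown bases, against 1327469 intervals in all. The shares are therefore not those of readable sequence. Those without reads in at least 5 libraries numbered 12, and in these 0.95% to 8.9% of 36-mers were unique. The 46 intervals with reads in every library all had at least 16.65% unique 36-mers. Reads were of 100 bases in pairs per the methods, and stretches of that length are more often unique. With 100-mers, 4.15% to 40.75% were unique in the 12 intervals and at least 53.45% in the 46. Over whole regions the unique share was 11.7% of 36-mers and 37.2% of 100-mers at *Zscan4c*, 7.58% and 25.1% at *Zscan4f*, and 37.5% and 71% at *Zscan4d*. It was 76.0% and 92.0% at *Zfp352*, 58.5% and 90.8% at *Tdpoz3* and 46.2% and 84.3% at *Tdpoz4*, so that the *Zscan4* regions were the least unique at both lengths.

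The intervals closest to empty lay in the bodies and flanks of the *Zscan4* genes. The *Zscan4f* interval from 11992001 to 11994000, with 0.95% unique 36-mers, had no read in 17 libraries and 2 reads in all. Within *Zscan4f*, the intervals starting at 11984001 and 11986001 had no read in 12 and 11 libraries and held 9 and 13 reads in all. The *Zscan4c* interval starting at 11592001 was empty in 10 libraries, and that of *Zscan4d* starting at 11758001, a sequence whose 36-mers occurred in a median of 601 copies, in 11. Of the single values, 81 of 266 at *Zscan4f*, 46 of 247 at *Zscan4c* and 19 of 247 at *Zscan4d* were 0, compared with 2 of 285 at *Zfp352* and none at *Tdpoz3* and *Tdpoz4*. Over the 78 intervals, the share of unique 36-mers and the number of reads in all libraries had a Pearson correlation of 0.774 (Spearman 0.873), and with input reads alone 0.81 (Spearman 0.862). For 100-mers the values were 0.808 (Spearman 0.860) and 0.777 (Spearman 0.845). These intervals share libraries and, among copies, sequence.

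**Figure D1:**
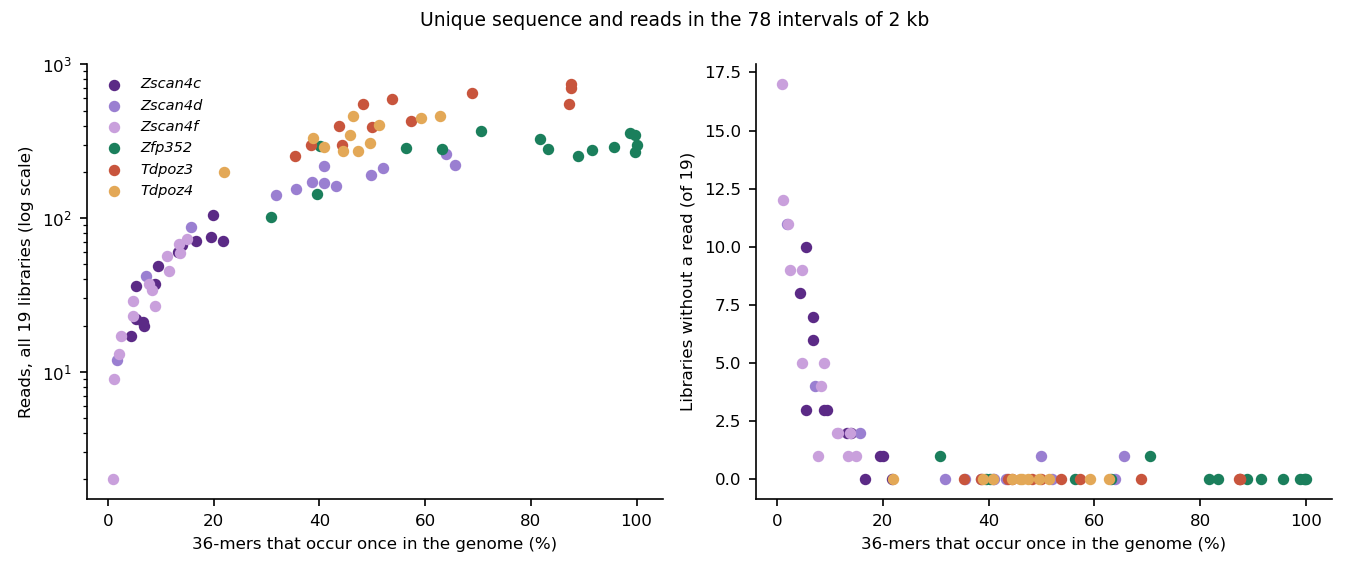
Share of 36-mers that occur once in the genome (x axis, percent) against reads summed over the 19 libraries (left, log scale) and against the number of libraries without a read (right), 1 point per 2 kb interval and 1 colour per gene. Intervals of *Zscan4c* and *Zscan4f* sit at the left, down to 2 reads and up to 17 empty libraries, whereas *Tdpoz3* and *Tdpoz4* have reads in every library.

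The levels of the 3 marks at each gene region were first compared in control cells. A level is given as reads per 2 kb relative to the mean of the library, so that 1 is the library mean. For H3K9me3 it was highest at *Tdpoz3*, with 3.47 at day 4 and 3.57 and 3.27 at day 8, against 1.43 in the input. It was 1.66, 1.83 and 1.85 at *Zfp352* (input 1.06) and 1.61, 1.45 and 1.55 at *Tdpoz4* (input 1.14). All control H3K9me3 libraries thus lay above the input at these 3 genes.

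At *Zscan4d*, control H3K9me3 libraries had levels of 0.774, 0.686 and 0.765 (input 0.553). At *Zscan4c* they were 0.244, 0.250 and 0.222 (input 0.156) and at *Zscan4f* 0.194, 0.152 and 0.201 (input 0.0998). These low levels rested on 42 to 46 reads per library at *Zscan4c* and 30 to 41 at *Zscan4f*, spread over 13 and 14 intervals. The input was low in the same regions, so that genes are compared below per unique sequence and over the input.

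**Figure D2:**
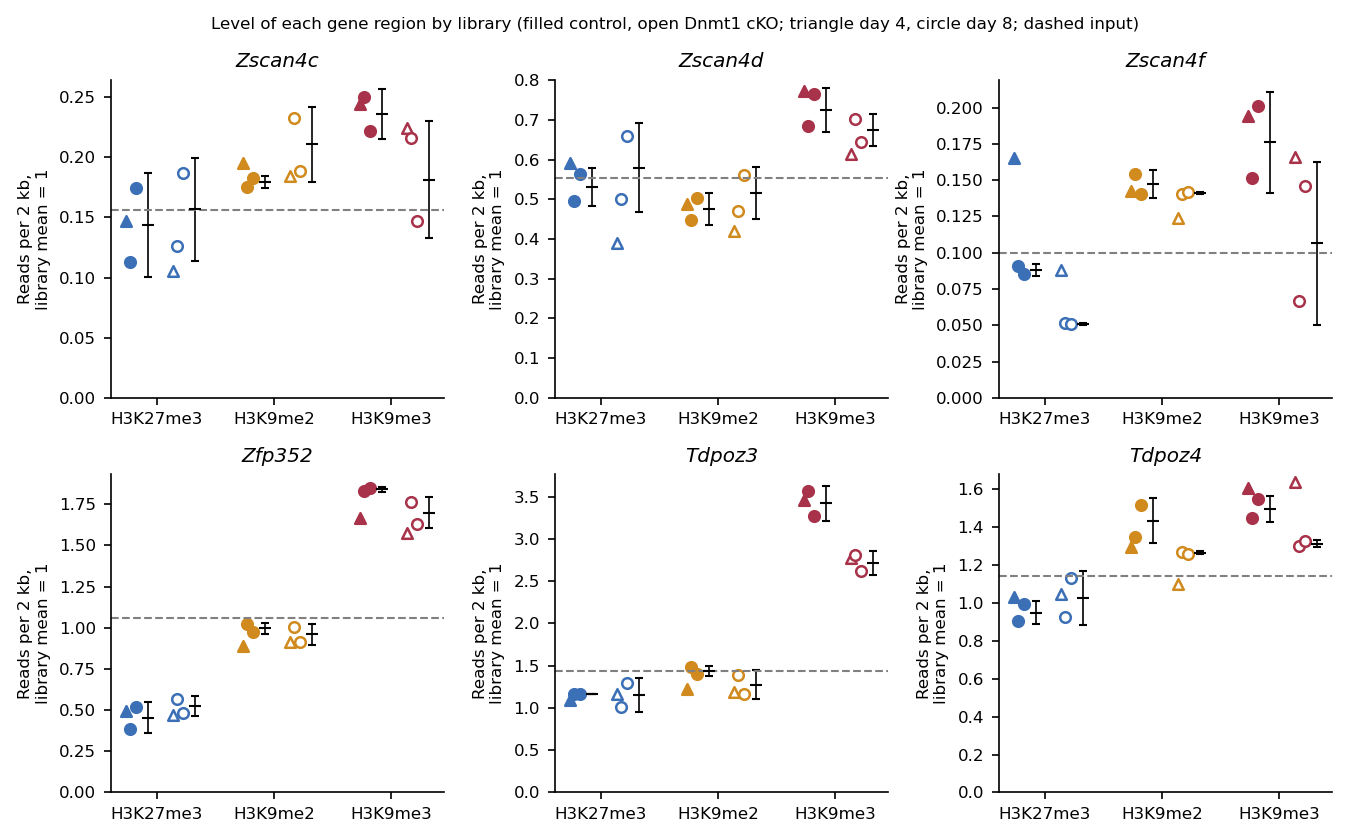
Level of each gene region (y axis, reads per 2 kb with the library mean set to 1) in each ChIP library, by mark. Filled symbols are control and open symbols *Dnmt1* cKO libraries, triangles day 4 and circles day 8, black bars the day 8 mean ± SD (n = 2), and the dashed line the input (y axes differ between genes). *Tdpoz3* stands out for H3K9me3, with controls from 3.27 to 3.57 and cKO libraries from 2.61 to 2.81.

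Expressed as RPM (reads scaled to a common library size) per 1000 unique 36-mers, the input of the 3 *Zscan4* regions and *Zfp352* came close together (0.501 for *Zscan4c*, 0.556 for *Zscan4d*, 0.496 for *Zscan4f* and 0.524 for *Zfp352*), while *Tdpoz3* and *Tdpoz4* had 0.921 and 0.931. Per 1000 unique 100-mers, the read length, these inputs lay apart. They were 0.1579 for *Zscan4c*, 0.2937 for *Zscan4d*, 0.1497 for *Zscan4f* and 0.4325 for *Zfp352*, with 0.5939 for *Tdpoz3* and 0.5105 for *Tdpoz4*. On the scale of 36-mers, control H3K9me3 was 2.21 ± 0.096 at *Tdpoz3* and 1.25 ± 0.066 at *Tdpoz4* (mean ± SD, n = 3). It was 0.906 ± 0.133 at *Zscan4f*, 0.883 ± 0.0509 at *Zfp352*, 0.767 ± 0.049 at *Zscan4c* and 0.746 ± 0.0486 at *Zscan4d* (n = 3 each). Neighbours in an order were taken as not separated where their ranges of mean ± SD overlapped. This was so for *Zscan4f* and *Zfp352* and for *Zscan4c* and *Zscan4d*.

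The order of the other genes depended on the scale. Levels over the input and per unique 100-mer were chosen for this after seeing the data. Over the input, control H3K9me3 was 2.40 ± 0.105 at *Tdpoz3*, 1.83 ± 0.268 at *Zscan4f*, 1.69 ± 0.0975 at *Zfp352* and 1.53 ± 0.0975 at *Zscan4c* (n = 3 each). *Tdpoz4* and *Zscan4d* were level at 1.34 ± 0.0711 and 1.34 ± 0.0875, so that *Tdpoz4*, second per unique 36-mer, was among the lowest over the input. Only *Tdpoz3* stood apart from the genes next to it on both scales, and per 1000 unique 100-mers it was highest as well (1.42 ± 0.062, against 0.729 ± 0.0421 at *Zfp352*). The SDs leave out the error of the single input, which held 20 reads at *Zscan4f* and 29 at *Zscan4c*.

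For H3K27me3, *Zfp352* was lowest on both scales, with 0.232 ± 0.0349 per 1000 unique 36-mers and 0.442 ± 0.0666 over the input (n = 3), and all other neighbours overlapped. Per unique 36-mer *Tdpoz4* (0.795 ± 0.0521) and *Tdpoz3* (0.733 ± 0.0277) came first. Over the input they came below the *Zscan4* genes, at 0.854 ± 0.0562 and 0.796 ± 0.0301, with *Zscan4f* at 1.14 ± 0.447, *Zscan4d* at 0.995 ± 0.0891 and *Zscan4c* at 0.929 ± 0.197. Per unique 100-mer *Zscan4c* (0.147 ± 0.0311) and *Zscan4f* (0.171 ± 0.0669) were below *Zfp352* (0.191 ± 0.0289), and their ranges overlapped.

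H3K9me2 was likewise ordered differently. Per unique 36-mer *Tdpoz4* was highest at 1.13 ± 0.0946, followed by *Tdpoz3* at 0.880 ± 0.0841. Over the input *Zscan4f* was highest at 1.46 ± 0.0762, followed by *Tdpoz4* at 1.21 ± 0.102 and *Zscan4c* at 1.18 ± 0.0654. *Tdpoz3*, *Zfp352* and *Zscan4d* lay below the input, at 0.956 ± 0.0913, 0.909 ± 0.0629 and 0.868 ± 0.052 (n = 3 each).

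**Figure D3:**
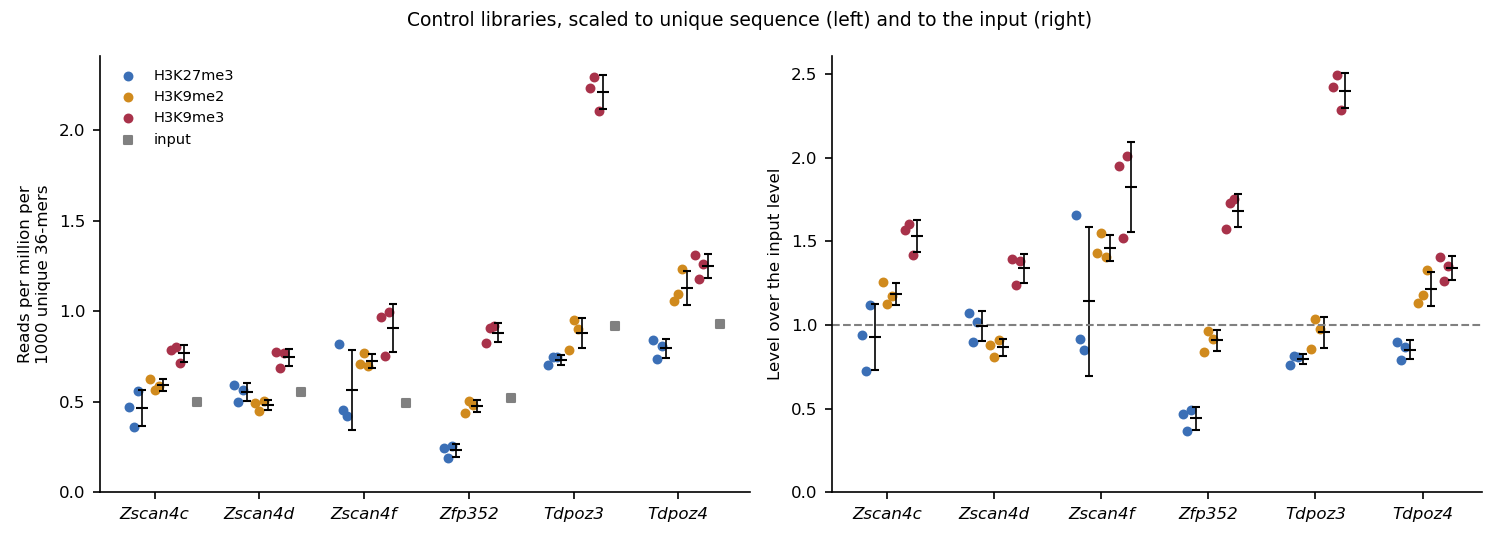
RPM per 1000 unique 36-mers (left) and level over the input level (right, dashed line at 1) at the 6 gene regions in control cells, 1 point per library and 1 colour per mark, with the mean ± SD (n = 3) as black bars and the input as grey squares. *Tdpoz3* H3K9me3 lies above all other values on both scales (means 2.21 and 2.40), whereas *Tdpoz4* H3K9me3 is second at the left (1.25) and among the lowest H3K9me3 values at the right (1.34).

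Which mark was relatively strongest at each gene was tested in control cells with limma, in 1 fit over the 18 ChIP libraries and 23352 gene regions, on log2 RPM, with two-sided Benjamini-Hochberg adjusted p-values. H3K9me3 exceeded H3K27me3 at 5 of the 6 genes, where 17.6% of all regions were called higher and the median region had a log2 difference of -0.32. The difference was 1.87 (SE 0.139, limma adjusted p = 6.04e-06) at *Zfp352* and 1.60 (SE 0.133, limma adjusted p = 1.06e-05) at *Tdpoz3*. *Zscan4c* (0.70, limma adjusted p = 0.0207), *Tdpoz4* (0.64, limma adjusted p = 0.00112) and *Zscan4d* (0.41, limma adjusted p = 0.0325) also passed the threshold, and *Zscan4f* (0.57, limma adjusted p = 0.0649) did not. The call at *Zscan4c* was lost without the day 8 control library of replicate 1 for either H3K27me3 (0.55) or H3K9me3 (0.66). That at *Zscan4d* was lost without replicate 1 of H3K27me3 (0.37) or replicate 2 of H3K9me3 (0.37). With a trend in the spread neither passed (limma adjusted p = 0.0539 and 0.103), nor did *Zscan4c* from deposited means (limma adjusted p = 0.0794) or *Tdpoz4* in the gene body alone (0.45, limma adjusted p = 0.1).

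The direction of this comparison depended on the scaling for the genome as a whole, and for *Zscan4d* on a correction for GC content. Of all regions, 4120 were higher and 10514 lower in H3K9me3 than in H3K27me3, and with every library centred on its median these counts were 10376 and 5985. After centring all 6 genes were called higher. After the GC correction 3 were, *Tdpoz3* at 1.14, *Zfp352* at 1.11 and *Tdpoz4* at 0.34, whereas *Zscan4c* was at 0.24 (limma adjusted p = 0.327) and *Zscan4d* at -0.04 (limma adjusted p = 0.796). From intervals with at least 50% unique 36-mers alone, which *Zscan4c* and *Zscan4f* lack, *Zfp352* and *Tdpoz3* were at 1.81 and 1.46 and again called. *Tdpoz4* was at 0.10 (limma adjusted p = 0.602) and *Zscan4d* at 0.00 (limma adjusted p = 0.993).

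H3K9me3 exceeded H3K9me2 at 3 of the 6 genes, with 8.5% of all regions called higher and a median log2 difference of 0.01. The differences were 1.37 (SE 0.133, limma adjusted p = 0.000528) at *Tdpoz3*, 0.89 (SE 0.139, limma adjusted p = 0.0048) at *Zfp352* and 0.62 (SE 0.146, limma adjusted p = 0.024) at *Zscan4d*. *Zscan4c*, *Zscan4f* and *Tdpoz4* had values of 0.34, 0.33 and 0.19 that did not pass. The call at *Tdpoz3* was lost in the gene body alone (0.44, limma adjusted p = 0.21), and that at *Zscan4d* likewise (0.20, limma adjusted p = 0.473). The *Zscan4d* call was also lost without replicate 1 (0.66) or 2 (0.59) of the day 8 control H3K9me3 libraries or replicate 1 of H3K9me2 (0.58).

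H3K9me2 exceeded H3K27me3 at 2 of the 6 genes, where 19.4% of all regions were called higher and the median region had -0.35. These were *Zfp352* (0.99, SE 0.139, limma adjusted p = 0.000248) and *Tdpoz4* (0.46, SE 0.118, limma adjusted p = 0.00761). This comparison depended on the scaling as well. Over all regions 4526 were higher and 10800 lower, against 10720 and 6299 after centring and 2563 and 12363 after the GC correction. With the GC correction *Zfp352* was at 0.24 (limma adjusted p = 0.158) and *Tdpoz4* at 0.12 (limma adjusted p = 0.362), while *Zscan4d* was called lower at -0.70 (limma adjusted p = 0.00205). After centring all 6 genes were called higher, *Zscan4d* among them at 0.42 (limma adjusted p = 0.0328). In unique intervals *Tdpoz4* was at 0.08 (limma adjusted p = 0.683) and *Zscan4d* was called lower at -0.71 (limma adjusted p = 0.00233), and in the gene body *Tdpoz4* was at -0.03.

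Within the gene regions, H3K9me3 was highest downstream of *Tdpoz3* and *Zfp352*, over several neighbouring intervals. The highest *Tdpoz3* interval, chr3:93638001-93640000, lay 9.06 kb from the start and had control levels of 5.67, 8.70 and 5.69, against 1.05 in the input. There H3K27me3 was 0.850 ± 0.237 and H3K9me2 0.347 ± 0.0694 (mean ± SD, n = 3). The highest *Zfp352* interval, chr4:89896001-89898000, lay 11.5 kb from the start and had control levels of 3.40, 6.23 and 3.77 (input 0.559), with H3K27me3 at 0.276 ± 0.214 and H3K9me2 at 0.281 ± 0.25 (n = 3). Both intervals thus carried H3K9me3 many times above the input and little H3K9me2. They were chosen for their H3K9me3 and no test was run on them. The 300 bases in the middle of each are shown, on the plus strand of NCBIM37, with CpG sites in capitals. They were taken by position. Reads were available per 2 kb only, so the signal need not lie on these bases.
Tdpoz3 interval (chr3:93638851-93639150): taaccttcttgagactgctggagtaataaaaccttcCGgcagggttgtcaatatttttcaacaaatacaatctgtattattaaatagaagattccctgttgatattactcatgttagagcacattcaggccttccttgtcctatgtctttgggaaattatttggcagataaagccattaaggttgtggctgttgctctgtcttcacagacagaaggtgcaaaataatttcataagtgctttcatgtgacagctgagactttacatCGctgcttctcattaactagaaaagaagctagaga
Zfp352 interval (chr4:89896851-89897150): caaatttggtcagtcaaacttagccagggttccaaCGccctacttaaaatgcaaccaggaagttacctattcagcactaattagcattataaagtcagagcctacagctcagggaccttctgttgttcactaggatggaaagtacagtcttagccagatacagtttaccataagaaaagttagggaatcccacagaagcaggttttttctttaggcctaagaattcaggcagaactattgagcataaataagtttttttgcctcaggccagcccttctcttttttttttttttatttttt
These windows held 2 and 1 CpG sites and were 65.3% and 59.6% unique by 36-mers. The intervals as a whole held 19 and 24 CpG sites, above the median interval of the *Tdpoz3* region (11) and the *Zfp352* region (11) and that of the genome (14). Whether the signal belongs to a retroviral element there was not tested, as no repeat annotation was used.

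The other highest intervals were less distinct. At *Tdpoz3*, H3K9me2 was highest at 93624001 to 93626000, upstream of the gene, with 2.69 ± 0.481, where H3K9me3 was 3.74 ± 0.0333 and the input 2.03 (n = 3). *Tdpoz4* had its highest H3K9me2 (2.39 ± 0.19) and H3K9me3 (2.21 ± 0.676) in the same interval, 93606001 to 93608000 (n = 3, input 1.26). At *Zfp352*, H3K9me2 was highest in the intron, from 89888001 to 89890000, at 1.77 ± 0.287, and H3K27me3 reached its highest level there as well, only 0.746 ± 0.307 (n = 3, input 1.12). The highest H3K27me3 level at *Zscan4d* stood 8.50 kb downstream of its start (11742001 to 11744000), at 1.52 ± 0.332 against 0.349 in the input, with H3K9me2 at 0.149 ± 0.166 (n = 3).

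**Figure D4:**
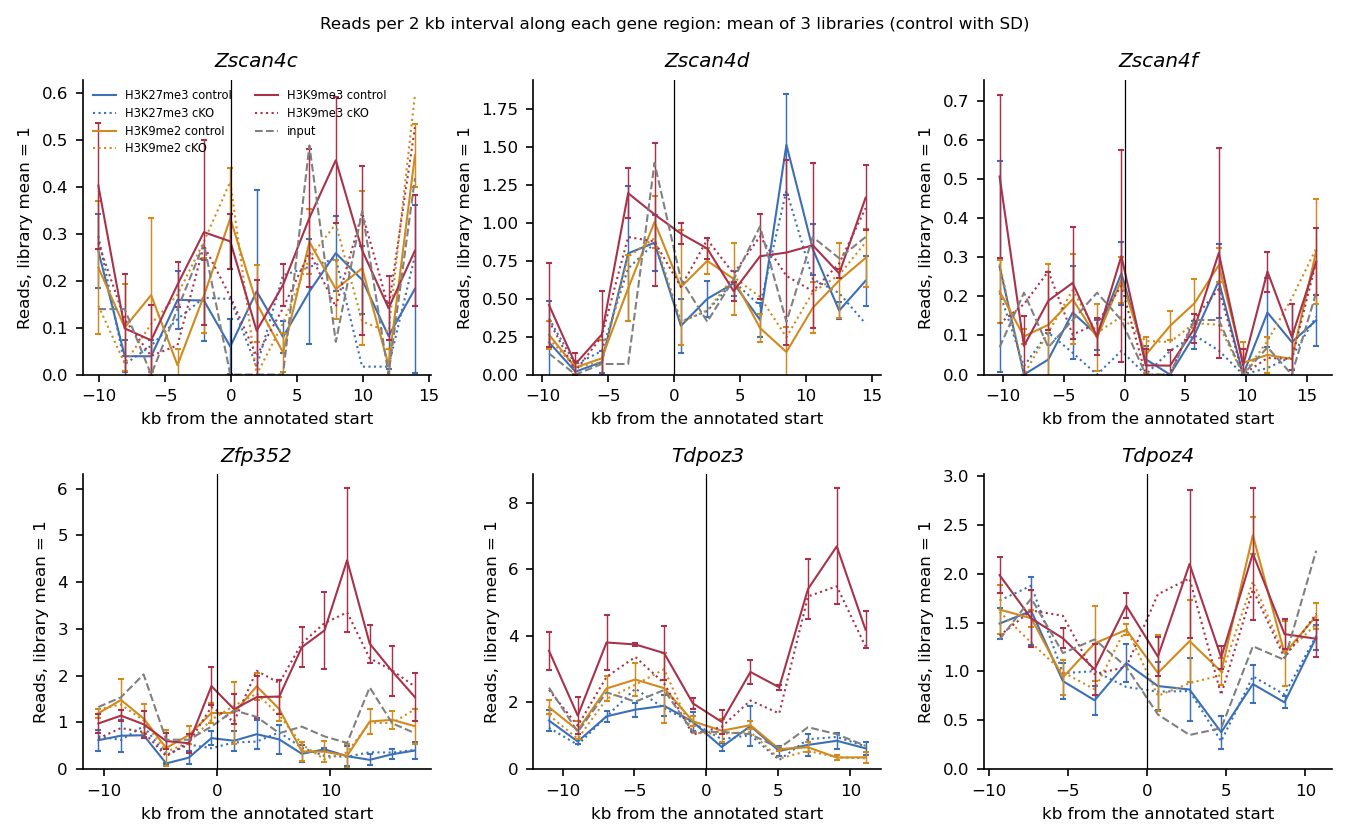
Level in each 2 kb interval (y axis, library mean set to 1) along the 6 gene regions (x axis, kb from the annotated start in the direction of transcription), as the mean of 3 libraries. Solid lines are control with the SD as bars, dotted lines *Dnmt1* cKO, and the grey dashed line the input (y axes differ between genes). H3K9me3 maxima stand 9.06 kb from the *Tdpoz3* start (control mean 6.69) and 11.5 kb from the *Zfp352* start (control mean 4.47).

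After loss of *Dnmt1*, the test called no change of any mark at any of the genes, which does not show that there was none. At day 8, limma called none of the 6 genes and 0.0% of all regions for each of H3K27me3, H3K9me2 and H3K9me3. At an unadjusted p under 0.05 there were 3034, 4580 and 2848 regions. The median of all regions was shifted by -0.10, 0.27 and 0.01 on the log2 scale. The difference values below are log2 of cKO over control.

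H3K9me3 was lower in the cKO at all 6 genes by value, but the sign was not stable at all of them. In the gene body alone *Tdpoz4* was at 0.81 and *Zfp352* at 0.11, and *Zfp352* was at 0.06 with the GC correction, none of them called. *Tdpoz3*, which had the highest level, had cKO levels of 2.77 at day 4 and 2.81 and 2.61 at day 8, all below the lowest control of 3.27. Its day 8 difference was -0.33 (SE 0.154, limma adjusted p = 0.428), and the 3 pairs of libraries gave -0.32, -0.34 and -0.32. How many of all regions had every cKO library below the lowest control was not counted, so this separation may be common. *Zfp352* went from 1.83 and 1.85 to 1.76 and 1.63 at day 8 (-0.12, SE 0.16, limma adjusted p = 0.902) and from 1.66 to 1.58 at day 4. *Tdpoz4* went from 1.45 and 1.55 to 1.30 and 1.33 at day 8 (-0.19, SE 0.137, limma adjusted p = 0.695), whereas at day 4 the cKO library (1.64) was not below the control (1.61). With day 4 included, the control and cKO levels of both genes overlapped.

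For the *Zscan4* genes the H3K9me3 values rested on few reads. *Zscan4f* held 30 and 41 reads in the day 8 controls and 4 and 30 in the cKO libraries, the 4 being in the shallow library. Its difference of -0.75 (SE 0.278, limma adjusted p = 0.337) was -0.24 without that library and 0.26 as a mean of the deposited log2 values. In the shallow library 11 of the 14 *Zscan4f* intervals were empty. An empty interval has a deposited value of -2.62 there, against -4.35 and -4.39 in the day 8 controls. The deposited mean is thus raised in that library and cannot show a direction. The direction at *Zscan4f* rests on few reads. *Zscan4c* went from levels of 0.250 and 0.222 to 0.216 and 0.147 (-0.38, SE 0.257, limma adjusted p = 0.648) and *Zscan4d* from 0.686 and 0.765 to 0.703 and 0.645 (-0.10, SE 0.168, limma adjusted p = 0.928). Lower H3K9me3 in both day 8 pairs was seen at 5 of the 6 genes, the exception being *Zscan4d*, and in 29.4% of all regions. In all 3 pairs it was lower at 4 genes, and in 4203 of the 23352 regions. Of the 2 day 8 pairs, 1 held the shallow library.

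H3K27me3 at day 8 differed by -0.02 to 0.21 at 5 genes and by -0.68 (SE 0.278, limma adjusted p = 0.357) at *Zscan4f*. The *Zscan4f* controls had levels of 0.0912 and 0.0852 and the cKO libraries 0.0517 and 0.0507, which are 20, 20, 11 and 14 reads. At day 4 they were 0.165 and 0.0881, so that the cKO library was the lower in all 3 pairs. The same held for 39.8% of all regions. At *Zfp352*, where H3K27me3 was lowest, the pairs went in opposite directions (0.54 and -0.12).

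H3K9me2 differences at day 8 ranged from -0.18 to 0.22 at the 6 genes while the median region had 0.27. Relative to library medians they were negative at all 6 genes, from -0.40 at *Tdpoz3* and *Tdpoz4* to -0.01 at *Zscan4c*, and none passed the threshold (lowest limma adjusted p = 0.353, at *Tdpoz4*). The levels of *Tdpoz3* were 1.48 and 1.40 in the controls and 1.39 and 1.16 in the cKO. Those of *Tdpoz4* were 1.35 and 1.52 in the controls and 1.27 and 1.26 in the cKO. At day 4 control and cKO had 1.225 and 1.188 at *Tdpoz3* and 1.295 and 1.102 at *Tdpoz4*. With day 4 included, the *Tdpoz3* groups overlapped. H3K9me2 was lower in both day 8 pairs at 3 of the 6 genes and in 12.7% of all regions. In all 3 pairs it was lower at 2 genes and in 8.81% of all regions. This mark depended on 1 library. Without the day 8 H3K9me2 cKO library of replicate 1, 9034 regions were called (8982 higher), none of the 6 genes among them.

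**Figure D5:**
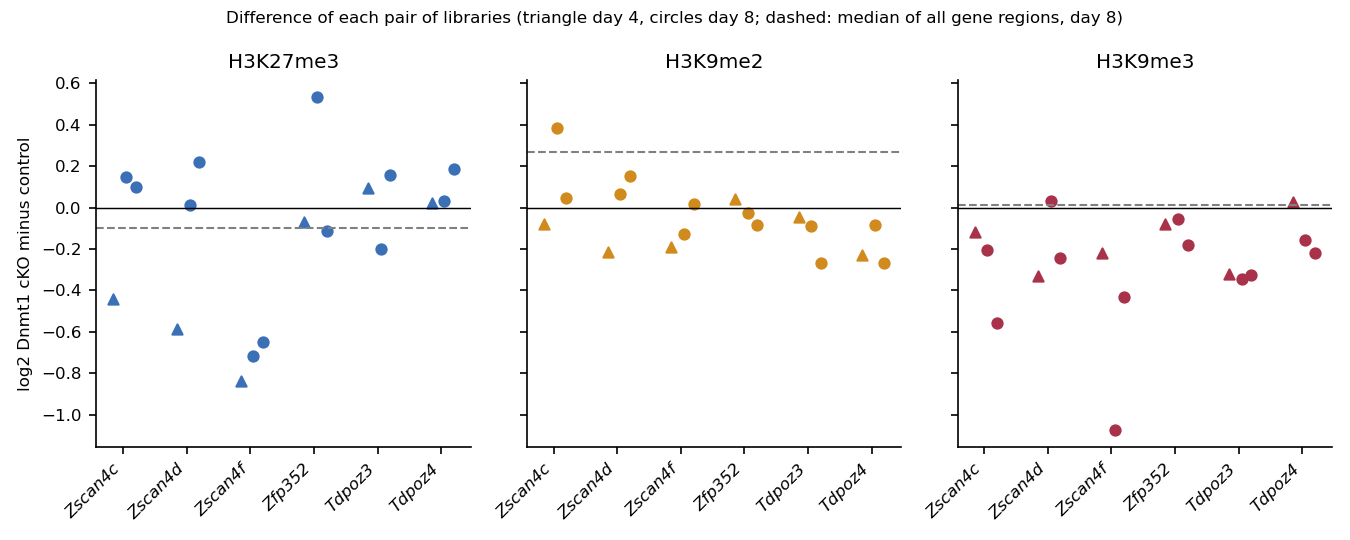
Log2 difference of *Dnmt1* cKO minus control (y axis) at the 6 gene regions for each cKO library and the control of its mark, day and replicate number, with triangles for day 4 and circles for day 8 and a dashed line for the day 8 median of all regions. For H3K9me3 the 3 *Tdpoz3* pairs lie together between -0.34 and -0.32, while *Zscan4f* spreads from -1.07 to -0.22.

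At day 4, with 1 library per group assumed to vary like those of day 8, limma likewise called none of the 6 genes and 0.0% of all regions for each mark. At an unadjusted p under 0.05 there were 72 regions for H3K27me3, 171 for H3K9me2 and 76 for H3K9me3. H3K27me3 had the most negative values, -0.84 (SE 0.393) at *Zscan4f*, -0.59 (SE 0.238) at *Zscan4d* and -0.44 (SE 0.363) at *Zscan4c*, all with a limma adjusted p of 1. For *Zscan4d* the H3K27me3 difference was 0.12 at day 8, and the change between the days of 0.71 (SE 0.292, limma adjusted p = 1) did not pass. No difference between days was called at any of the genes or in the 0.0% of regions called for each mark (196, 117 and 207 regions at an unadjusted p under 0.05 for H3K27me3, H3K9me2 and H3K9me3).

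Whether the day 8 difference itself differed between marks was tested as well. H3K9me3 moved more negatively than H3K27me3 by value at all 6 genes, from -0.51 at *Zscan4c* to -0.07 at *Zscan4f*, against a median region of 0.14. None passed limma's threshold (lowest adjusted p = 0.614, at *Tdpoz4*), and 0.0% of regions were called in any of the 3 mark pairs. At an unadjusted p under 0.05 there were 2290 regions for H3K9me3 against H3K27me3, 1695 for H3K9me3 against H3K9me2 and 5724 for H3K9me2 against H3K27me3.

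Differences of at least 2-fold were also counted, in either direction. The study used this size for transposable elements and for higher values only. No region of the 6 genes changed at least 2-fold in both day 8 pairs, compared with 0.364% of all regions for H3K27me3, 0.0385% for H3K9me2 and 0.103% for H3K9me3. At day 4 none did either, against 0.0385%, 0.12% and 0.0428% of all regions. Of single intervals, 1 of 77 did for H3K27me3 (1.15% of all intervals), 0 of 77 for H3K9me2 (0.972%) and 2 of 78 for H3K9me3 (1.87%). With a prior of 0.5 read in place of 2 the counts were 9, 4 and 6, against 2.66%, 2.44% and 3.41% of all intervals, so that they depend on how values near 0 are treated.

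The H3K27me3 interval lay upstream of *Zscan4d*, at the edge of the region (11760001 to 11762000), with 0 and 2 control reads and 4 and 14 cKO reads at day 8. The depth-adjusted ratio of the second pair was 5.95, with an exact 95% interval from 1.37 to 54.0 that covers counting error only. At day 4 the direction was opposite, with 9 control reads and 2 cKO reads. The H3K9me3 intervals both belonged to *Zscan4f*. That from 11978001 to 11980000 went from 5 and 4 reads to 0 and 1, and that from 11982001 to 11984000, which holds the annotated start, from 2 and 9 to 0 and 3. At day 4 both were higher in the cKO (1 to 4 and 2 to 8 reads). The ratios of the second pair were 0.249 (0.00505 to 2.51) and 0.332 (0.0577 to 1.33), both with intervals that include no change. The H3K9me3 maximum near *Tdpoz3* had cKO levels of 3.81, 6.79 and 5.87, overlapping the controls, and that near *Zfp352* had 3.51, 3.75 and 2.80, likewise overlapping.

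For each gene, the region with the most similar values over the 18 ChIP libraries was sought among 23346 regions. By Pearson correlation of log2 RPM these were *Akr1c21* for *Zfp352* (0.988), *Olfr748* for *Tdpoz3* (0.984), *Gm17365* for *Tdpoz4* (0.951), *Gm3867* for *Zscan4c* (0.914), *Lair1* for *Zscan4d* (0.90) and *Olfr926* for *Zscan4f* (0.87). *Zfp352* and *Tdpoz3* shared their pattern widely, with 760 and 529 regions at a correlation over 0.9. No region exceeded this for *Zscan4d* or *Zscan4f*. Among the 6 genes the highest value was 0.878 for *Zfp352* with *Tdpoz3*, and the lowest 0.195 for *Zscan4d* with *Zscan4f*. The 18 libraries fall into 3 marks, which these correlations follow.

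Other genes linked to the 2-cell-like state were described from a list of 34 matched genes, 33 of which were tested. In control cells, H3K9me3 exceeded H3K27me3 at 23 of the 33 and fell below it at 3, with a median of 0.74 over the list and -0.32 over all regions. The highest values were those of *Zscan4b* (1.92), a further *Zscan4* copy, *Obox3* (1.64), a homeobox gene, and *Tdpoz5* (1.55). *Dux*, whose product activates many genes of this state, was at 0.70. The genes that were lower were *Arg2* (-1.78), encoding an arginase, *Tmem92-ps* (-1.10) and *Spz1* (-0.65). Of all regions 17.6% were called higher, and 10514 of the 23352 were called lower. After the GC correction 16 of the 33 genes were higher and 5 lower, against 3153 and 12422 of all regions.

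H3K9me3 exceeded H3K9me2 at 8 of the 33 genes, among them *Zscan4b* (1.36), *Obox3* (1.29), *Sp110* (1.13) and *Dux* (0.64), and was lower at 1, *Arg2* (-0.56). Of all regions 8.5% were called higher, and 1946 of the 23352 were called lower. From deposited means or in gene bodies, 3 of the 33 genes were higher. The list median was 0.02, close to that of all regions. H3K9me2 exceeded H3K27me3 at 17 genes and was lower at 3, with the ubiquitin protease genes *Dub1* (1.43), *Dub2a* (1.14) and *Dub3* (1.11) highest. Of all regions 19.4% were called higher for this pair, and 10800 of the 23352 were called lower. After centring 30 of the 33 genes were higher and 1 lower (10720 and 6299 of all regions). After the GC correction the counts were 10 and 5 (2563 and 12363 of all regions), and 8 and 5 with a replicate block added to it. None of the 33 genes was called at day 8 for any mark, and none changed 2-fold in both day 8 pairs. At *Dux*, H3K27me3 stood 1.08 higher in the cKO at day 8 (SE 0.144, limma adjusted p = 0.185), named here after its value was seen. The list medians at day 8 were 0.12 (H3K27me3), -0.08 (H3K9me2) and -0.15 (H3K9me3), against 0.11, -0.06 and -0.26 for the 6 genes described above.

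Genes that encode regulators of this state made up a second list, of 15. H3K9me3 exceeded H3K27me3 at 4 of them in control cells, *Rif1* (1.29), *Ehmt1* (0.65), *Dppa4* (0.58) and *Zfp42* (0.56), and none was lower. *Rif1* encodes a factor in telomere and replication control, *Ehmt1* an H3K9 methyltransferase, *Dppa4* an activator of *Dux* and *Zfp42* a zinc finger factor of pluripotent cells. Of all regions 17.6% were called higher. Centring the libraries raised the count among the 15 to 12, with 10376 of all 23352 regions then higher. The block with the GC correction lowered it to 2, and a fit of the control libraries alone gave 6 higher and 1 lower. In the main fit, the shares for the other mark pairs were not above those of all regions. H3K9me3 exceeded H3K9me2 at 1 gene, *Rif1* (0.96), with 8.5% of all regions called. In the fit of control libraries alone it was 9 genes, with 5270 of all regions higher. H3K9me2 exceeded H3K27me3 at 2, *Ehmt1* (0.80) and *Zfp42* (0.38), with 19.4%. H3K9me2 was lower than H3K27me3 at 3, *Daxx* (-1.18), *Ehmt2* (-1.09) and *Uhrf1* (-0.90), where 10800 of the 23352 regions were called lower. None of these genes was called lower after centring or the GC correction. None of the 15 was called at day 8 for any mark. Their median day 8 difference was -0.35 for H3K27me3, negative at all 15, and 0.54 for H3K9me2, positive at all 15, against medians of -0.10 and 0.27 over all regions. The share of all regions with the same sign was not counted. In both day 8 pairs, H3K27me3 was lower in 51.6% of all regions and H3K9me2 in 12.7%. The day 8 result for H3K9me2 depended on 1 cKO library, as given above.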

How the data were processed

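ChIP-seq of H3K27me3, H3K9me2 and H3K9me3 in control and *Dnmt1* cKO mouse ESCs gave 18 libraries, and 1 input library came from control cells. Per the study's methods, the authors trimmed reads with Trim Galore, aligned them with Bowtie2 (2.2.9 in the submitters' processing notes) to NCBIM37 and discarded alignments with a mapping quality under 20. The authors deposited log2 observed over expected reads per interval, expecting an even spread over the genome. Tile size is 1 kb in the methods but 2 kb in the table. Libraries were sequenced as pairs of reads of 100 bases. Input was not subtracted, and removal of duplicates from the ChIP-seq reads is not given in the sources used here. Values stepped in whole reads in 100% of low values, so reads were recovered, with an empty interval written as 0.9 of a read.

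Reads were summed over each gene and 10 kb either side, expressed as log2 RPM with a prior of 2 reads, and fitted in limma (3.58.1, R 4.3.3) by lmFit, then eBayes with no trend (12 groups, 6 residual degrees of freedom, 15 contrasts, two-sided) over 23352 of 23641 regions with a mean of at least 10 reads. Calls used a Benjamini-Hochberg adjusted p of 0.05. On simulated data the fit let through more false calls than its nominal rate, so calls near the threshold are weak. Whether it would recover differences as small as those at the 6 genes was not tested. A level is reads per 2 kb over the library mean. Depth limits single intervals most, and exact intervals of read ratios cover counting error only. Copies were counted as 36-mers, 50-mers and 100-mers over 21 chromosomes, and regions aligned with BLASTN 2.17.0. For the GC correction, regions were binned by GC content (width 0.02) and the median of each bin was subtracted within a library.

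The 8 genes were given by name, and for each the intervals with the start, with the highest control level of each mark and with a 2-fold difference in both day 8 pairs were described. Members, lists and tests were chosen with earlier results of these data known. Other genes were named where they passed the threshold, with a few examples given, or as the most correlated region. Alternatives tried were another prior, means of deposited values, gene bodies, centring, a trend, a replicate block, a GC correction, no filter, a smaller fit (control libraries only for mark contrasts, day 8 libraries of the marks compared for day 8 differences), mostly unique intervals, levels over input and per unique 100-mer (both chosen after seeing the data) and leaving out each day 8 library.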

Additional observations from a re-analysis of the deposited data

How the results depend on the processing

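For the 6 genes, log2 differences gave 684 values under the alternatives. No sign turned with a prior of 0.5 read, no filter, a replicate block, a trend or the smaller fit. Elsewhere 48 turned, 10 of 36 in gene bodies, 8 of 54 with the GC correction and as many with the block added, 5 of 54 each after centring and from deposited means, 4 of 36 in unique intervals and 8 of 144 without 1 library. Of these, 44 were called neither before nor after. The other 4 were *Zscan4d* for H3K9me3 minus H3K27me3 (-0.045 with the GC correction, with or without the block) and H3K9me2 minus H3K27me3 (0.42 centred), and *Tdpoz4* for H3K9me2 minus H3K27me3 (-0.030 in the gene body). The cause was not tested. No call changed with a prior of 0.5 read, no filter or a replicate block. Beside these 4 values, calls were lost for 2 values with a trend, 1 from deposited means, 3 each with the GC correction, in gene bodies and in unique intervals and 7 without 1 library, and gained for 4 after centring and 1 each with the GC correction, in unique intervals and in the smaller fit. *Zfp352* and *Tdpoz3* kept H3K9me3 above H3K27me3 in 15 of 15 alternatives (1.11 to 2.47 and 0.72 to 2.2). Deviations of same-numbered day 8 control and cKO libraries correlated at 0.577, 0.437 and 0.167 (H3K27me3, H3K9me2, H3K9me3) over 2 pairs. Same-numbered libraries thus deviated together, least for H3K9me3, and the main fit did not use this pairing. The replicate block was 1 term shared by all marks, so it does not test pairing within a mark. It gave 14450, 3043 and 15118 regions against 14634, 3932 and 15326 for H3K9me3 minus H3K27me3, H3K9me3 minus H3K9me2 and H3K9me2 minus H3K27me3 in control cells.

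Regions called for H3K9me3 minus H3K9me2 in control cells moved from 3932 to 1027 (deposited means), 1385 (gene body) and 8739 (smaller fit), and ranged from 1256 to 2128 without 1 library, where H3K9me3 minus H3K27me3 gave 12956 to 13580 and H3K9me2 minus H3K27me3 13353 to 14896. At day 8, limma called 0 regions, but 2 for H3K9me3 after centring, and with a trend 3 for H3K9me3, 7 for H3K27me3 and 3 for H3K9me3 minus H3K27me3. Without 1 library the day 8 counts ran from 0 to 9034 for H3K9me2, 0 to 9578 for H3K9me2 minus H3K27me3 and 0 to 5830 for H3K9me3 minus H3K9me2, the highest each time without the day 8 H3K9me2 cKO library of replicate 1. With a prior of 0.5 read, intervals changed 2-fold rose from 1 to 9, 0 to 4 and 2 to 6 at the genes and from 14483 to 33352, 12198 to 30620 and 23452 to 42835 in all (H3K27me3, H3K9me2, H3K9me3). Intervals without reads numbered 5 at *Zscan4c*, 1 at *Zscan4d* and 4 at *Zscan4f* in the input alone, against 0 over all libraries. With 50-mers and 100-mers, the unique share was 17.8% and 37.2% at *Zscan4c*, 49.4% and 71% at *Zscan4d*, 11.6% and 25.1% at *Zscan4f*, 83.4% and 92.0% at *Zfp352*, 71.2% and 90.8% at *Tdpoz3*, and 60.6% and 84.3% at *Tdpoz4*. Day 4 had 1 library per group, and at *Zscan4c* and *Zscan4f* reads per library were too few to bound small differences.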
